A study of Homo sapiens with 6 samples.

Results

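The 43 genes described here encode the DNA replication machinery, and they were taken from the 21863 gene symbols of the deposited expression values by a list of symbols, which was drawn up with earlier results of these data known. All 43 were found, 40 under the listed symbol and 3 (*ORC1*, *ORC2* and *CDC45*, listed as *ORC1L*, *ORC2L* and *CDC45L*) under the newer symbol. They fall by role into origin recognition and licensing (6 genes), the MCM2-7 helicase (6), helicase activation (7), DNA polymerases and primase (9), the sliding clamp and its loader (6), single-strand binding and Okazaki fragment joining (5) and nucleotide supply (4).

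RNA was sequenced from Hep G2, a human liver tumor cell line that the study describes as lacking expression of *miR-195* and *miR-497*. The 3 conditions were dsRNA mimicking *miR-195* at 5 nM for 24 hours, dsRNA mimicking *miR-497* at 5 nM for 24 hours, and non-transfected cells (NT), which the labels place at 0 h. From each condition 1 total RNA library (mRNA-seq) and 1 library of RNA precipitated with an antibody to Argonaute 2 (Ago2-IP), the protein that carries miRNAs to their target mRNAs, were sequenced, 6 libraries in all. All 6 come from the same line grown in the same medium, no library received a control dsRNA, and with 1 library per condition no spread between replicates can be given and no test was run. The mimics therefore cannot be told apart from transfection and from time in culture when they are compared with NT, while the libraries of both mimics are matched in dose and time.

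Values are RPKM, reads per kilobase of transcript per M (1e+06) mapped reads, so that levels of different genes can be compared per length. A log2 change is the log2 of an RPKM ratio between libraries and is negative where the first library is lower. Genes with a mean of at least 1 RPKM over the 3 libraries of a fraction were kept, and all 43 genes passed in both fractions, with all 43 at 1 RPKM or more in each total RNA library. The depth implied by the RPKM steps was 24.7 M to 31.0 M mapped reads in total RNA and 10.7 M to 16.8 M in the Ago2-IP libraries, where 18.2% to 28.6% of mapped reads fell on symbols whose reads could be inferred, against 78.4% to 82% in total RNA. Reads could be inferred for 37 of the 43 genes, 354 to 12491 per library in total RNA and 15 to 1882 in Ago2-IP, and they give 95% intervals that cover counting error only, while *ORC2*, *GINS2*, *POLA1*, *PCNA*, *TYMS* and *TK1* have none. The liver genes *ALB*, *AFP*, *APOA1*, *APOB*, *TTR*, *SERPINA1*, *FGB* and *TF* all reached 1 RPKM in every total RNA library, with summed RPKM of 7617 to 7865, while of the leukocyte markers *PTPRC* and *CD3E* were listed at 0 in all 6 libraries and *CD68* read 10.5 to 13.8 RPKM in total RNA, and the endothelial and fibroblast markers summed to at most 0.420 RPKM.

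Replication begins when the origin recognition complex, CDC6 and CDT1 load the MCM2-7 ring on DNA in G1 phase. The kinase CDC7 with its activator DBF4, the GINS complex, CDC45 and MCM10 then turn the ring into a running helicase, primase and polymerase alpha lay down primers, and polymerases delta and epsilon, held by the PCNA clamp, copy the strands. Many of these genes are known to be transcribed from late G1 into S phase by E2F factors, so that their RNA is abundant in proliferating cells and low in resting ones.

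The mature sequences of both miRNAs are printed here because they share the seed, bases 2 to 8 counted from the 5′ end and shown in capitals, that pairs with target mRNAs (RefSeq, build GRCh38.p14).
hsa-miR-195-5p: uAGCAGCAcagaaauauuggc
hsa-miR-497-5p: cAGCAGCAcacugugguuugu
The seed pairs perfectly with the word TGCTGCT, and in the 3′UTRs of the 43 genes (GENCODE release 44 on GRCh37) this word was found in *CDC6*, *CDT1*, *GINS2*, *GINS4* and *POLD3*. The sites of 4 of these genes follow with 30 bases of mRNA-sense sequence each, the word in capitals and the coordinates of the word on GRCh37. *GINS4* has 2 sites, not shown.
CDC6 (chr17:38460444-38460450, plus strand): tttctaggtcatTGCTGCTcttaagacttt
CDT1 (chr16:88874929-88874935, plus strand): cacctctgtcctTGCTGCTggtggggaagg
GINS2 (chr16:85710996-85711002, minus strand): agtcactttcagTGCTGCTcttgatggatt
POLD3 site 1 (chr11:74352582-74352588, plus strand): gaggagctgccgTGCTGCTgatacggggtg
POLD3 site 2 (chr11:74352607-74352613, plus strand): gggtgtgctttaTGCTGCTctttgcggttt

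Words known to be bound by E2F factors were more frequent in promoters of these genes than in all promoters, and a few are shown because many replication genes are E2F targets, 30 bases each on the strand of the gene, with the word or its reverse complement in capitals (RefSeq promoter windows of 250 bases before to 50 after the gene start, GRCh38.p14 coordinates).
CDC6 (chr17:40287875-40287904, plus strand): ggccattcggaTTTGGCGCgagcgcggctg
MCM2 (chr3:127598404-127598433, plus strand): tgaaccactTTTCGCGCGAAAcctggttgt
MCM6 (chr2:135876575-135876604, minus strand): ggctttgcaTTTGGCGCGAAAtccctttcc
MCM7 (chr7:100101388-100101417, minus strand): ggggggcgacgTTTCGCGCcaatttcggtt
GINS2 (chr16:85688967-85688996, minus strand): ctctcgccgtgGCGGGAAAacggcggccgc
POLE2 (chr14:49688201-49688230, minus strand): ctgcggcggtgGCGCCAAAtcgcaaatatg
PCNA (chr20:5126663-5126692, minus strand): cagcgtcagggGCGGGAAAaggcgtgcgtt
RFC3 (chr13:33818083-33818112, plus strand): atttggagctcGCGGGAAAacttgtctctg
TYMS (chr18:657603-657632, plus strand): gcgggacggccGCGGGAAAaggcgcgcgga
In *MCM2* and *MCM6* a pair of words on opposite strands overlap in the run of capitals. The shares of genes with these words, and their values, are given after the expression results.

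The change in total RNA with each mimic was examined first. With *miR-195* 42 of the 43 replication genes had a lower RPKM than in NT, all but *POLD2*, with a median log2 change of -0.67 against -0.0042 over the 11039 genes kept. At least 1.5-fold lower were 31 of 43 genes (72.1%), where 6.29% of all genes kept were, and none was 1.5-fold higher, where 6.54% of all genes were. With *miR-497* the median log2 change was -0.35 against 0.055 over 11042 genes, 37 of 43 genes were below NT, 8 (18.6%) were at least 1.5-fold lower beside 2.93% of all genes, and none was 1.5-fold higher beside 12.5%. The count for *miR-497* was 5 with a pseudocount of 1 RPKM (1.87% of all genes), 11 under scaling by the median RPKM (3.95%) and 12 under scaling by a trimmed mean of log ratios (4.19%). No gene was 2-fold lower with either mimic. Of the 37 genes with a counting interval, 36 with *miR-195* and 32 with *miR-497* lay wholly below the median of all genes, and 0 and 2 wholly above it. The same count was not made over all genes, so these counts have no background to be read against. Both comparisons use the same NT library, and in these bulk samples fewer cells in S phase and less RNA per cell cannot be told apart.

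**Figure D1:**
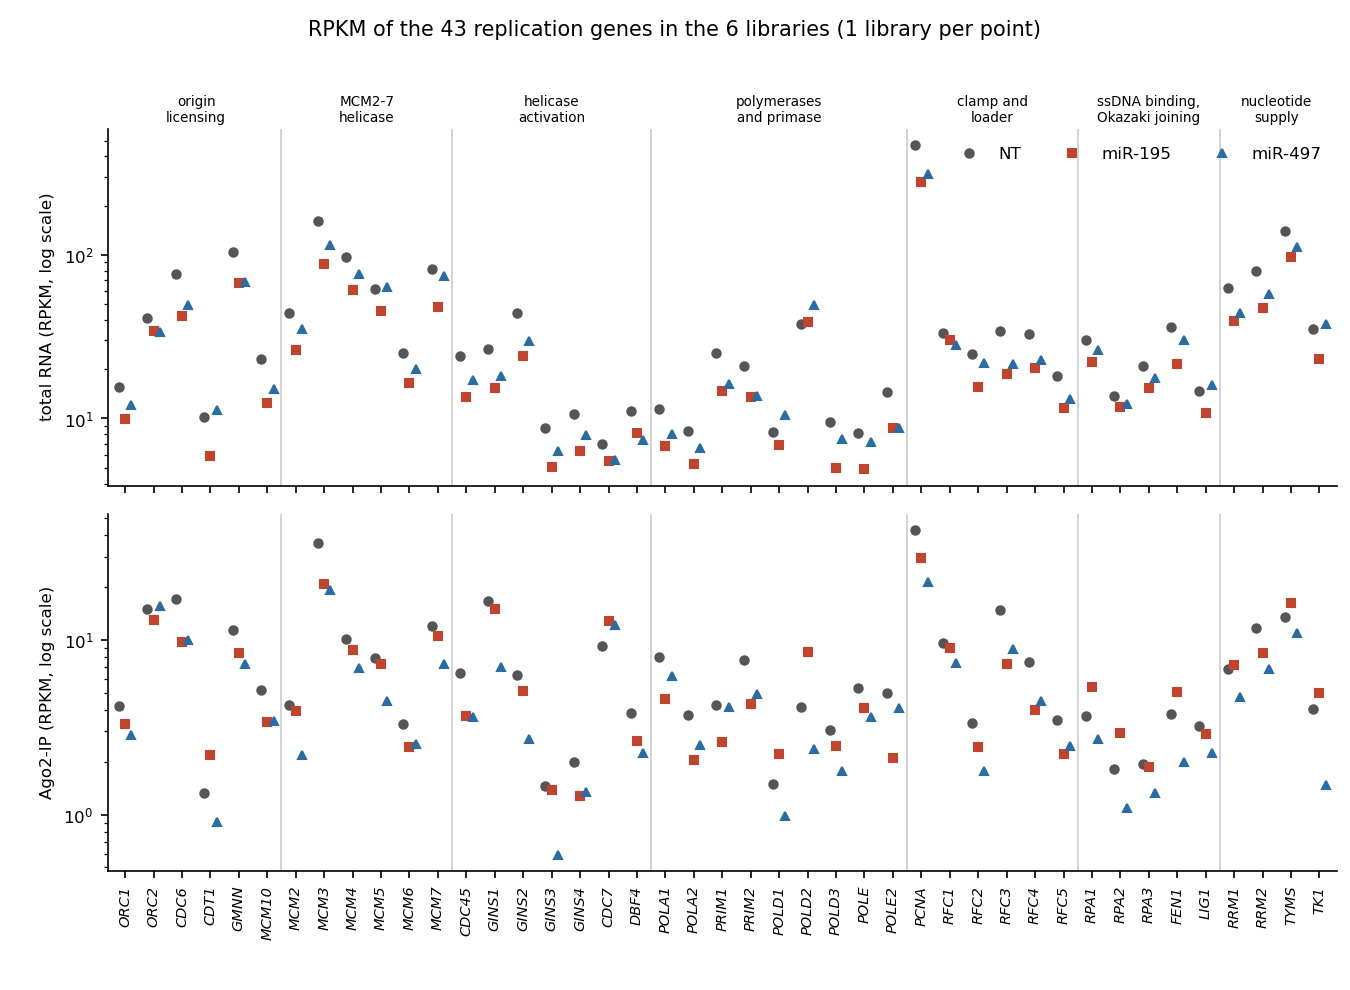
RPKM (log axes) of the 43 replication genes in total RNA (upper panel) and in the Ago2-IP fraction (lower panel), with genes grouped by role along the x axis and 1 point per library for NT (gray circles), *miR-195* (red squares) and *miR-497* (blue triangles). In total RNA *PCNA* was highest in each library (471, 279 and 314 RPKM in NT, *miR-195* and *miR-497*), and the red squares lie below the gray circles for every gene but *POLD2*.

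In the sentences that follow, RPKM values are in the order NT, *miR-195*, *miR-497*, and log2 changes are those of *miR-195* and then *miR-497* relative to NT. Counts by role at least 1.5-fold lower go beside 6.29% (*miR-195*) and 2.93% (*miR-497*) of all genes kept. Among the licensing genes 6 of 6 were lower with *miR-195* and 5 of 6 with *miR-497*, with group medians of -0.73 and -0.48. *ORC1*, the subunit of the origin recognition complex whose level is known to follow the cell cycle, read 15.6, 9.86 and 12.1 RPKM, with log2 changes of -0.67 (95% counting interval -0.79 to -0.54) and -0.37 (-0.48 to -0.25). *ORC2*, a core subunit of the same complex, read 41.3, 34.5 and 33.9 RPKM, log2 changes of -0.26 and -0.28, the smallest change of the group with *miR-195*. *CDC6*, the ATPase that helps the complex load the MCM ring (chr17:38444131-38460909, plus strand on GRCh37), read 76.5, 42.2 and 49.4 RPKM, with log2 changes of -0.86 (95% counting interval -0.92 to -0.80) and -0.63 (-0.69 to -0.58). *CDT1*, its partner in loading (chr16:88870197-88875666, plus strand), read 10.2, 5.91 and 11.3 RPKM, with log2 changes of -0.79 (95% counting interval -0.96 to -0.62) and 0.14 (-0.00065 to 0.28), so that it was 1.73-fold lower with *miR-195* and near its NT level with *miR-497*. *GMNN*, which encodes the CDT1 inhibitor geminin, was the highest of the group at 104, 67.3 and 68.4 RPKM, with log2 changes of -0.62 and -0.60. *MCM10*, a factor that binds the loaded helicase, read 23.1, 12.5 and 15.2 RPKM, log2 changes of -0.88 and -0.61. The lowest value of each licensing gene was thus in a transfected library, and for *CDT1* the *miR-497* library was the highest of the 3.

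All 6 subunits of the MCM2-7 ring were lower with *miR-195*, in a narrow range from -0.88 (*MCM3*) to -0.45 (*MCM5*). With *miR-497* 5 of 6 were below NT, from -0.50 (*MCM3*) to 0.03 (*MCM5*), and none was 1.5-fold lower. Relative to genes of like G+C content, a measure described with base composition, *MCM2* at -0.69 and *MCM3* at -0.66 were the lowest of all 43 genes with *miR-497*. By that measure *MCM7* was at -0.43, *MCM4* at -0.38, *MCM5* at -0.26 and *MCM6* at -0.21. *MCM3*, the most abundant subunit and the gene with the most inferred reads (12491, 8035 and 11079), read 162, 88.0 and 115 RPKM, with log2 changes of -0.88 (95% counting interval -0.92 to -0.84) and -0.50 (-0.53 to -0.46). *MCM4* and its partners *MCM6* and *MCM7* form the subassembly of the ring with helicase activity of its own. *MCM4* read 96.6, 60.7 and 76.2 RPKM, log2 changes of -0.67 and -0.34. *MCM6* was lower in level at 25.1, 16.4 and 20.1 RPKM, log2 changes of -0.62 and -0.32. *MCM7* read 81.6, 48.3 and 74.2 RPKM, with log2 changes of -0.76 (95% counting interval -0.81 to -0.70) and -0.14 (-0.18 to -0.09), the widest gap between the mimics within the ring. The remaining subunits, *MCM2* and *MCM5*, sit on the side of the ring that opens for loading. *MCM2* read 44.2, 26.3 and 35.2 RPKM, log2 changes of -0.75 and -0.33. *MCM5* read 62.0, 45.5 and 63.2 RPKM, with log2 changes of -0.45 (95% counting interval -0.51 to -0.38) and 0.03 (-0.03 to 0.09), and its value with *miR-497* did not differ from NT beyond counting error. The order of levels in NT, *MCM3* highest and *MCM6* lowest, was the same in the *miR-195* and *miR-497* libraries at both ends.

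The genes that activate the helicase were 7 of 7 lower with each mimic, with medians of -0.78 and -0.49, and with *miR-195* the 4 GINS subunits stayed within -0.89 to -0.74. *CDC45*, the companion of the MCM ring in the moving helicase, read 24.2, 13.5 and 17.2 RPKM, with log2 changes of -0.85 (95% counting interval -0.98 to -0.72) and -0.49 (-0.61 to -0.37). *GINS1* (PSF1) read 26.5, 15.3 and 18.2 RPKM, log2 changes of -0.80 and -0.54. *GINS2* (PSF2), the most abundant of the 4, read 44.4, 24.0 and 29.9 RPKM, log2 changes of -0.89 and -0.57. *GINS3* (PSF3), with the fewest reads of all 37 genes in total RNA (514, 354 and 466, tied with *POLA2* in NT), read 8.69, 5.05 and 6.29 RPKM, with log2 changes of -0.78 (95% counting interval -0.98 to -0.59) and -0.47 (-0.65 to -0.28). *GINS4* (SLD5) read 10.6, 6.36 and 7.93 RPKM, log2 changes of -0.74 and -0.42. The GINS genes differed far more in level than in change. *CDC7*, the kinase that phosphorylates the MCM ring, was the least abundant replication gene in NT and read 6.95, 5.51 and 5.58 RPKM, with log2 changes of -0.34 (95% counting interval -0.50 to -0.17) and -0.32 (-0.48 to -0.15). *DBF4*, the activating subunit of CDC7, read 11.1, 8.17 and 7.36 RPKM, with log2 changes of -0.44 (95% counting interval -0.57 to -0.31) and -0.59 (-0.72 to -0.46), and it was lower with *miR-497* than with *miR-195*.

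The polymerase and primase genes held both ends of the range, with medians of -0.73 and -0.35, 7 of 9 at least 1.5-fold lower with *miR-195* and 3 of 9 with *miR-497*. *POLA1*, the catalytic subunit of polymerase alpha, read 11.4, 6.77 and 8.01 RPKM, log2 changes of -0.76 and -0.51. *POLA2*, its accessory subunit, read 8.39, 5.28 and 6.57 RPKM, log2 changes of -0.67 and -0.35. *PRIM1*, the catalytic primase subunit, read 25.1, 14.7 and 16.2 RPKM, log2 changes of -0.77 and -0.63. *PRIM2*, the large primase subunit, read 20.9, 13.5 and 13.7 RPKM, log2 changes of -0.63 and -0.61. All 4 genes of the primer-making complex were thus lower with each mimic. *POLD1*, the catalytic subunit of polymerase delta (chr19:50887461-50921275, plus strand), read 8.27, 6.86 and 10.5 RPKM, with log2 changes of -0.27 (95% counting interval -0.42 to -0.12) and 0.35 (0.22 to 0.49). *POLD2*, its small subunit (chr7:44154230-44163957, minus strand), read 37.7, 38.7 and 49.2 RPKM, with log2 changes of 0.04 (95% counting interval -0.06 to 0.13) and 0.38 (0.30 to 0.47) and was the only replication gene that was not lower with *miR-195*. *POLD3*, a further subunit of the same enzyme (chr11:74204896-74380162, plus strand), read 9.48, 5.00 and 7.50 RPKM, with log2 changes of -0.92 (95% counting interval -1.08 to -0.76) and -0.34 (-0.48 to -0.20), the lowest change of all 43 genes with *miR-195*, although its counting interval holds the changes of *GINS2*, *MCM10*, *MCM3*, *RFC3*, *CDC6*, *CDC45*, *GINS1*, *CDT1*, *GINS3* and *PRIM1* as well. Polymerase delta was therefore split, with *POLD3* lower and *POLD1* and *POLD2* higher than NT with *miR-497*, although relative to genes of like G+C content, a measure described with base composition, *POLD1* was at -0.24, *POLD3* at -0.17 and *POLD2* at 0.09. *POLE*, the catalytic subunit of polymerase epsilon, read 8.11, 4.88 and 7.16 RPKM, log2 changes of -0.73 and -0.18. *POLE2*, an accessory subunit of polymerase epsilon, read 14.6, 8.74 and 8.72 RPKM, with log2 changes of -0.74 (95% counting interval -0.91 to -0.58) and -0.75 (-0.91 to -0.58), the lowest change of all 43 genes with *miR-497*, with those of *RFC3*, *PRIM1*, *CDC6*, *PRIM2*, *MCM10*, *GMNN*, *DBF4* and *PCNA* inside its counting interval.

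**Figure D2:**
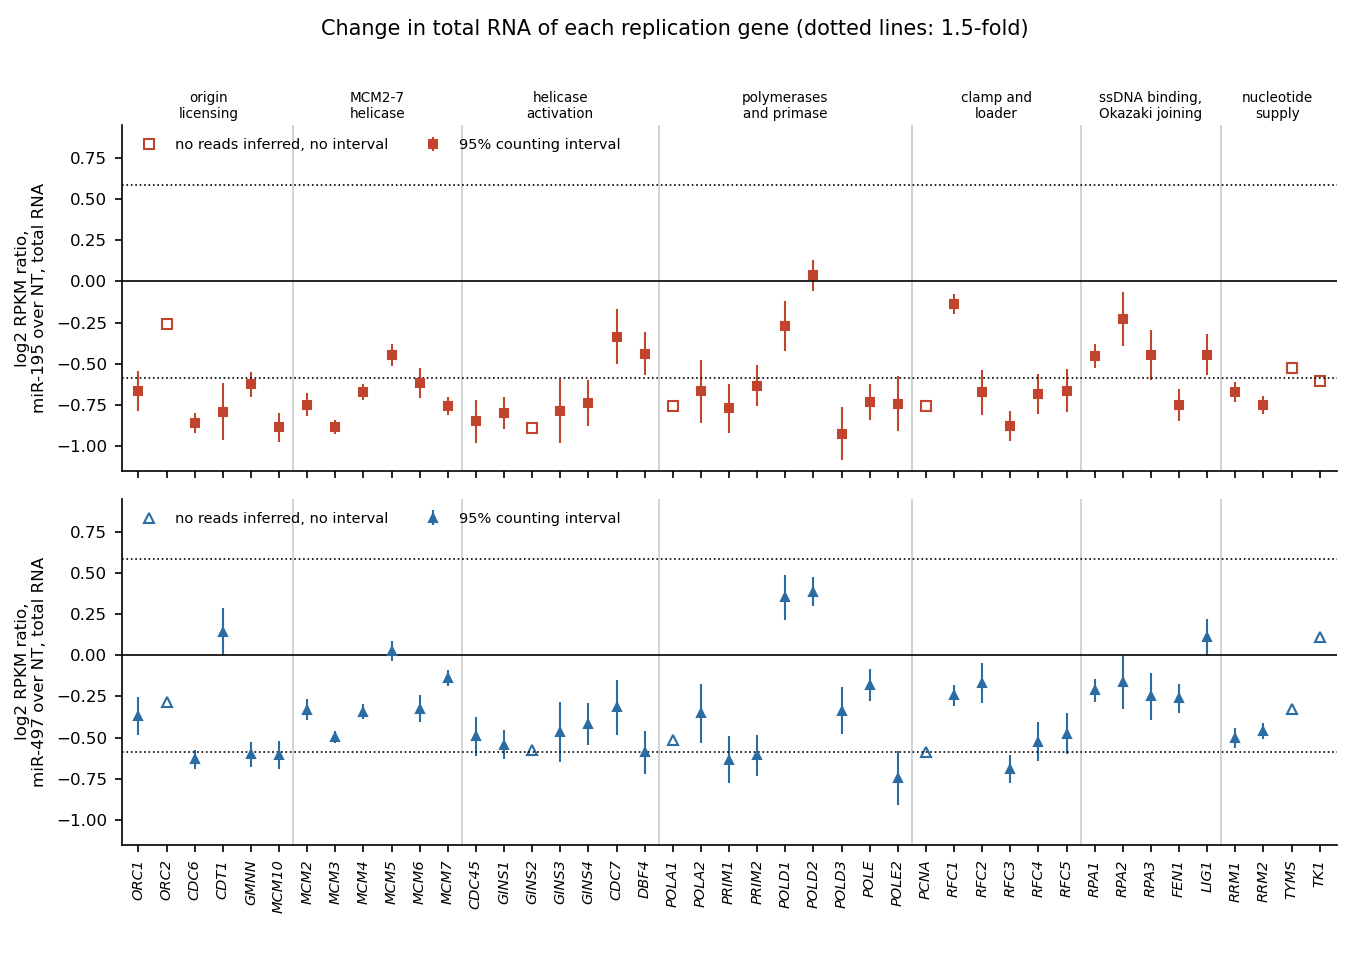
Log2 RPKM ratio of each replication gene in total RNA with *miR-195* over NT (upper panel) and *miR-497* over NT (lower panel), grouped by role, with 1 library on each side of each ratio. Bars are 95% counting intervals, open symbols mark genes without inferred reads, and dotted lines mark 1.5-fold. With *miR-195* the points lie between -0.92 (*POLD3*) and 0.04 (*POLD2*), and with *miR-497* between -0.75 (*POLE2*) and 0.38 (*POLD2*).

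Of the clamp and loader genes 6 of 6 were lower with each mimic, and 5 with *miR-195* and 1 with *miR-497* were at least 1.5-fold lower. *PCNA*, the sliding clamp that tethers polymerases to DNA (chr20:5095599-5107272, minus strand), was the most abundant replication gene at 471, 279 and 314 RPKM, with log2 changes of -0.76 and -0.58. *RFC1*, the large subunit of the clamp loader, read 33.1, 30.1 and 27.9 RPKM, with log2 changes of -0.14 (95% counting interval -0.20 to -0.08) and -0.24 (-0.31 to -0.18). The small subunits stood apart from it with *miR-195*, *RFC2* at 24.7, 15.5 and 22 RPKM, log2 changes of -0.67 and -0.17. *RFC3* read 34.5, 18.7 and 21.4 RPKM, with log2 changes of -0.88 (95% counting interval -0.97 to -0.79) and -0.69 (-0.78 to -0.60), the lowest of the loader with each mimic. *RFC4* read 32.7, 20.3 and 22.7 RPKM, log2 changes of -0.69 and -0.52. *RFC5* read 18.3, 11.5 and 13.1 RPKM, log2 changes of -0.66 and -0.48. The 4 small subunits thus lay between -0.88 and -0.66 with *miR-195*, outside the counting interval of *RFC1*.

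Genes for single-strand binding and fragment joining had the median nearest to 0 of the 7 role groups, with medians of -0.45 and -0.21. *RPA1*, the large subunit of the single-strand binding protein RPA, read 30.2, 22.1 and 26.1 RPKM, with log2 changes of -0.45 (95% counting interval -0.52 to -0.38) and -0.21 (-0.28 to -0.14). *RPA2* read 13.7, 11.7 and 12.2 RPKM, log2 changes of -0.23 and -0.17. *RPA3*, the smallest RPA subunit, read 21.0, 15.4 and 17.7 RPKM, log2 changes of -0.45 and -0.25. *FEN1*, the nuclease that trims Okazaki fragment flaps, read 36.1, 21.5 and 30.1 RPKM, with log2 changes of -0.75 (95% counting interval -0.85 to -0.65) and -0.26 (-0.35 to -0.17) and was the only gene of the 5 at least 1.5-fold lower with *miR-195*. *LIG1*, the ligase that seals the fragments, read 14.8, 10.9 and 16.0 RPKM, with log2 changes of -0.45 (95% counting interval -0.57 to -0.32) and 0.11 (2.1e-05 to 0.22). With *miR-497* none of these 5 genes passed 1.5-fold in either direction.

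In the nucleotide supply group 4 of 4 genes were lower with *miR-195* and 3 of 4 with *miR-497*. *RRM1*, the large subunit of ribonucleotide reductase, read 62.4, 39.2 and 44.1 RPKM, log2 changes of -0.67 and -0.50. *RRM2*, the small subunit of the same enzyme, known to be made in S phase, read 79.7, 47.4 and 58.0 RPKM, with log2 changes of -0.75 (95% counting interval -0.80 to -0.70) and -0.46 (-0.51 to -0.41). *TYMS*, thymidylate synthase, was the most abundant gene of the group at 140.0, 97.4 and 111 RPKM, log2 changes of -0.52 and -0.33. *TK1*, the S-phase thymidine kinase, read 35.0, 23.0 and 37.8 RPKM, log2 changes of -0.60 and 0.11, and the *miR-497* library was the highest of the 3. The ribonucleotide reductase subunits were lower with each mimic, while *TYMS* did not reach 1.5-fold with either. In the annotation 967 of the 1613 exonic bases of *TYMS* overlap *ENOSF1* on the opposite strand, and the strand setting of the counting is not given in the sources used here. Exons of 7 of the 43 genes overlap those of a coding gene on the opposite strand, and those of 2, *PRIM1* and *POLD1*, overlap a coding gene on the same strand. Pseudogenes named after them exist for 11 genes, among them *PCNA* with 3 and *RRM2* with 3. Reads of all these genes may therefore be shared.

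Base composition moved with the change in total RNA, above all with *miR-497*. Over 10442 genes the G+C content of the longest coding transcript and the log2 change with *miR-497* had a Pearson r of 0.74 and a Spearman rho of 0.76, across genes that share the same libraries and are not independent replicates. With *miR-195* these values were 0.26 and 0.29 over 10441 genes, and the part of base composition in the changes was not tested. From the lowest to the highest of 20 equal bins of G+C content the median log2 change over all genes went from -0.27 to 0.70 with *miR-497* and from -0.11 to 0.18 with *miR-195*. The 6 replication genes above NT with *miR-497* are all rich in G+C, *CDT1* with 64.3%, *POLD1* with 63.9%, *TK1* with 62.8%, *LIG1* with 60.9%, *MCM5* with 56.3% and *POLD2* with 55.3%, where the median of the 43 genes was 46.7% and that of all genes 48.1%, and *MCM5* lay below NT, at -0.02 and -0.04, under both other scalings of the libraries. Relative to the median of genes in the same bin, the log2 change with *miR-497* was -0.56 for *CDT1*, -0.48 for *TK1*, -0.39 for *LIG1*, -0.26 for *MCM5*, -0.24 for *POLD1* and 0.09 for *POLD2*. By this measure, which was chosen after the values had been seen, 43 of 43 genes with *miR-195* and 42 of 43 with *miR-497* were below genes of like composition, with medians of -0.70 and -0.42. At least 1.5-fold lower by the same measure were 28 genes with *miR-195*, beside 5.92% of all genes, and 6 with *miR-497*, beside 1.61%. These 6 were *MCM2* (-0.69), *MCM3* (-0.66), *CDC45* (-0.65), *POLE2* (-0.63), *GINS2* (-0.61) and *POLA2* (-0.60). Only *POLE2* of them was also 1.5-fold lower with *miR-497* on the values as deposited, so the count was similar but the genes were not. *POLD2*, at -0.01 and 0.09, had the highest centred change of the 43 genes with each mimic.

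**Figure D3:**
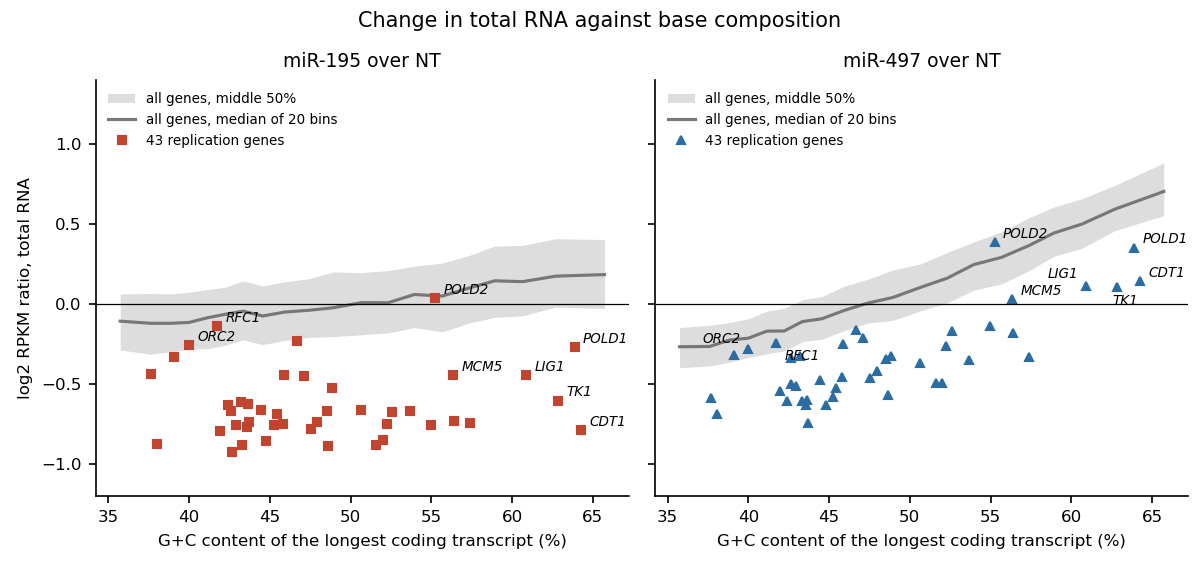
Log2 RPKM ratio in total RNA (y axis) against the G+C content in percent of the longest coding transcript (x axis), with *miR-195* over NT on the left and *miR-497* over NT on the right. The gray line is the median and the gray band the middle 50% of all genes in 20 equal bins, and colored symbols are the 43 replication genes, 1 library on each side of each ratio. The gray line climbs from -0.27 to 0.70 with *miR-497*, and the replication genes above 0 there lie at 55.3% G+C or more.

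The libraries of both mimics, which share dose and time, were compared directly. Between *miR-195* and *miR-497* the median log2 difference of the replication genes was -0.29 against -0.080 over 11043 genes, with 39 of 43 genes lower with *miR-195* and 35 below the median of all genes. At least 1.5-fold lower with *miR-195* were 5 genes (11.6%), beside 6.09% of all genes, and none was 1.5-fold higher, beside 1.48%. These were *CDT1* at -0.93 (-1.09 to -0.77), *TK1* at -0.71, *MCM7* at -0.62 (-0.67 to -0.57), *POLD1* at -0.62 (-0.76 to -0.48) and *POLD3* at -0.59 (-0.75 to -0.43). *DBF4* at 0.15 (0.02 to 0.28) and *RFC1* at 0.11 (0.04 to 0.17) were the genes whose counting interval lay above 0. Over all genes this difference also moved with G+C content (r of -0.64 over 10441 genes). Relative to genes in the same G+C bin, 41 of 43 genes were still lower with *miR-195*, with a median of -0.20, and 1 was at least 1.5-fold lower, *POLD3* at -0.65, beside 1.18% of all genes. Only *DBF4* (37.7% G+C) and *RFC1* (41.7%) were not lower by this measure, at 0.03 and 0.04. The number of genes past 1.5-fold also changed with the scaling of the libraries. It was 2 under scaling by the median RPKM, beside 3.87% of all genes. Under scaling by a trimmed mean of log ratios it was 2, beside 4.30%. With these scalings the share of the 43 genes was thus near that of all genes. The same scalings moved the split of all genes past 1.5-fold, of which 19.5% were higher as deposited and 38.4% and 33.8% after scaling, and for *miR-497* over NT 81% as deposited and 72% and 69.4% after scaling.

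Replication genes outside the 43 were read from a list of 42, such as the other origin recognition subunits, chromatin assembly factors and dNTP enzymes. The *miR-195* library lay at a median log2 change of -0.50 over these genes and the *miR-497* library at -0.26, with 16 and 7 of 42 at least 1.5-fold lower and 1 and 2 at least 1.5-fold higher. Beside these counts, and those of the mitosis genes below, 6.29% and 2.93% of all genes kept were at least 1.5-fold lower. At least 1.5-fold higher were 6.54% and 12.5%. *CLSPN*, the fork checkpoint mediator claspin, was the lowest with *miR-195* at -0.99 and had -0.56 with *miR-497*. *ORC6*, the smallest origin recognition subunit, had -0.97 and -0.63, and *ORC4*, a core subunit, -0.11 and -0.27. *POLD4*, the smallest subunit of polymerase delta, went from 4.37 RPKM in NT to 9.16 RPKM after *miR-195* and 7.28 RPKM after *miR-497*, log2 changes of 1.07 and 0.74, and was the only gene of the list 1.5-fold higher with *miR-195*. The topoisomerases differed, *TOP2A* at -0.76 and -0.63 and *TOP1*, which acts outside S phase too, at 0.20 and 0.01. A list of 32 mitosis genes, among them cyclin B1 and the spindle checkpoint kinases, had medians of -0.83 and -0.50, with 32 of 32 below NT with *miR-195*, 31 of 32 with *miR-497*, and 29 and 12 at least 1.5-fold lower. The replication genes thus lay between the other replication genes and the mitosis genes on each median, a description of these libraries with no test.

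**Figure D4:**
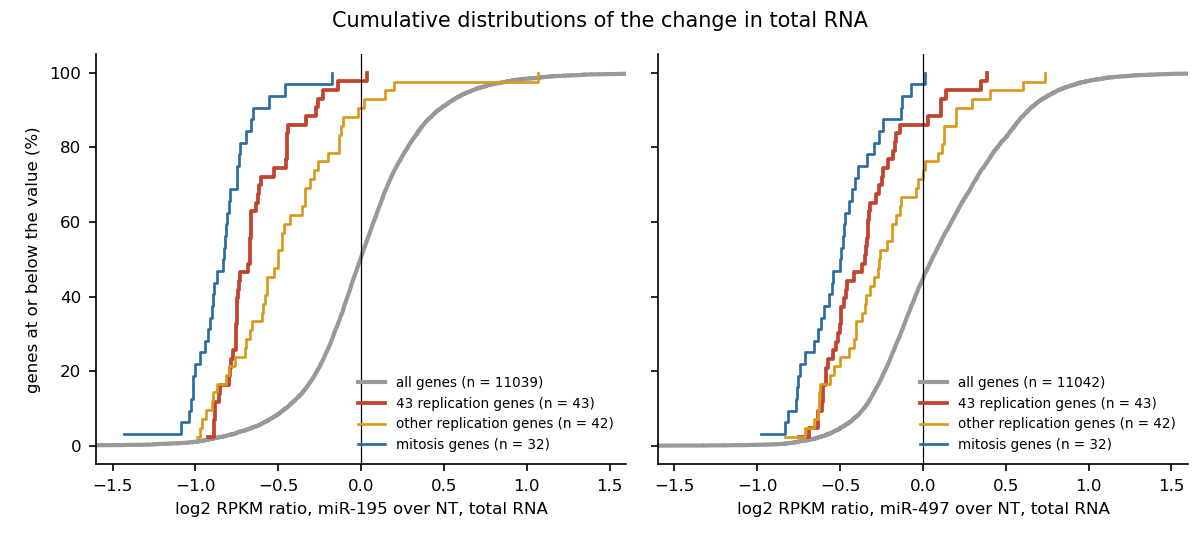
Cumulative share of genes in percent (y axis) at or below a log2 RPKM ratio in total RNA (x axis), with *miR-195* over NT on the left and *miR-497* over NT on the right, for all genes kept (gray), the 43 replication genes (red), 42 other replication genes (orange) and 32 mitosis genes (blue). The red curve crosses its middle at -0.67 and -0.35, left of the gray curve at -0.0042 and 0.055 and right of the blue curve at -0.83 and -0.50.

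The Ago2-IP fraction was examined next. There the middle of all genes itself differed between libraries, by log2 values of 0.48 (*miR-195* over NT) and -0.25 (*miR-497* over NT), so changes there are given relative to the median of all genes kept. The Ago2-IP RPKM were lower than in total RNA for 42 of the 43 genes in NT, as they were for 9147 of all 9675 genes, with a median log2 ratio of Ago2-IP to total RNA of -2.46 against -1.85 over 9675 genes. Which libraries were poly-A selected is not given in the sources used here, and the part of this step in the ratios was not tested. *CDC7* was the exception among the 43, at 9.22, 12.9 and 12.2 RPKM in the Ago2-IP fraction of NT, *miR-195* and *miR-497* against 6.95, 5.51 and 5.58 RPKM in total RNA, and *PCNA* had the lowest ratio in NT, -3.48. With *miR-195* the median relative change of the replication genes was -0.78, 37 of 43 lay below the median of all genes, and 30 (69.8%) were at least 1.5-fold lower beside 15.1% of all genes, with none 1.5-fold higher beside 17.9%. With *miR-497* the median was -0.40, 40 of 43 lay below, 9 (20.9%) were at least 1.5-fold lower beside 6.84% of all genes, and 1, *CDC7*, was 1.5-fold higher beside 5.63%. Of 37 genes with a counting interval, 29 with *miR-195* and 22 with *miR-497* lay wholly below the median of all genes, and 1 with each mimic lay wholly above it. Intervals were not counted over all genes here either.

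By role, values are again in the order NT, *miR-195*, *miR-497*, now as Ago2-IP RPKM, with the relative log2 change of each mimic after them. Licensing genes were mostly low, *ORC1* at 4.18, 3.31 and 2.87 (-0.81 and -0.29). *ORC2* read 15.1, 12.9 and 15.6 (-0.70 and 0.29). *CDC6*, which carries the target word, read 17.2, 9.72 and 9.99 (-1.30 and -0.54). *CDT1*, which carries it too, read 1.33, 2.20 and 0.912 (0.25, counting interval -0.24 to 0.73, and -0.30, -0.96 to 0.36), so that neither mimic moved it beyond counting error relative to all genes. *GMNN* read 11.4, 8.46 and 7.26 (-0.91 and -0.41), and *MCM10* read 5.16, 3.37 and 3.45 (-1.09 and -0.34). The ring subunits were 6 of 6 below the median of all genes with each mimic. *MCM2* read 4.24, 3.91 and 2.19 (-0.59 and -0.71), and *MCM3* read 35.9, 20.9 and 19.2 (-1.26 and -0.66). *MCM4* read 10.1, 8.73 and 6.87 (-0.68 and -0.31), and *MCM5* read 7.91, 7.33 and 4.5 (-0.59 and -0.57). *MCM6* read 3.31, 2.45 and 2.55 (-0.91 and -0.13), and *MCM7* read 12, 10.5 and 7.30 (-0.67 and -0.47). For each subunit of the ring the NT library was thus the highest of the 3.

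Among the activation genes *CDC45* read 6.48, 3.66 and 3.65 (-1.30 and -0.58). *GINS1* read 16.7, 14.9 and 6.99 (-0.64 and -1.01), and *GINS2* read 6.29, 5.10 and 2.70 (-0.78 and -0.97). *GINS3*, with 15 reads in the *miR-497* library, read 1.47, 1.38 and 0.589 (-0.56 and -1.07), and *GINS4* read 2.00, 1.28 and 1.34 (-1.12 and -0.32). *CDC7* was at 0.01 (-0.16 to 0.18) and 0.65 (0.47 to 0.84), above the median of all genes with *miR-497*, while its partner *DBF4* read 3.83, 2.66 and 2.25 (-1.0 and -0.52). The primer-making genes were all low with *miR-195*, *POLA1* at 7.97, 4.59 and 6.25 (-1.27 and -0.10) and *POLA2* at 3.72, 2.05 and 2.50 (-1.34 and -0.32). *PRIM1* read 4.27, 2.61 and 4.11 (-1.18 and 0.19), and *PRIM2* read 7.71, 4.31 and 4.94 (-1.31 and -0.40). *POLE2* had the lowest relative change of the 43 genes with *miR-195*, at 4.98, 2.11 and 4.05 (-1.71 and -0.05), and *POLE* read 5.31, 4.07 and 3.64 (-0.86 and -0.30). The polymerase delta genes differed again, *POLD1* at 1.5, 2.24 and 0.980 (0.10 and -0.37), *POLD2* at 4.12, 8.48 and 2.38 (0.57, interval 0.24 to 0.89, and -0.54), and *POLD3*, with 2 target words, at 3.05, 2.46 and 1.78 (-0.78 and -0.53). *POLD2* was the only replication gene whose interval lay above the median of all genes with *miR-195*.

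*PCNA* read 42.3, 29.3 and 21.4 in the Ago2-IP fraction (-1.01 and -0.74). Of the loader, *RFC1* read 9.56, 8.98 and 7.36 (-0.57 and -0.13), and *RFC2* read 3.37, 2.43 and 1.77 (-0.95 and -0.68). *RFC3* read 14.8, 7.33 and 8.91 (-1.49 and -0.48), *RFC4* read 7.44, 3.99 and 4.45 (-1.37 and -0.49), and *RFC5* read 3.49, 2.23 and 2.47 (-1.12 and -0.25). All 6 were below the median of all genes with each mimic. The RPA subunits differed from each other, *RPA1* at 3.68, 5.39 and 2.72 (0.08 and -0.19), *RPA2* at 1.83, 2.95 and 1.09 (0.21 and -0.50) and *RPA3*, with 49 reads in NT, at 1.963, 1.88 and 1.33 (-0.54 and -0.32). *FEN1* read 3.75, 5.03 and 2.00 (-0.05 and -0.66), and *LIG1* read 3.24, 2.91 and 2.25 (-0.63 and -0.28). For nucleotide supply, *RRM1* read 6.85, 7.16 and 4.74 (-0.41 and -0.29) and *RRM2* read 11.7, 8.47 and 6.81 (-0.95 and -0.54). *TYMS* read 13.5, 16.2 and 11 (-0.22 and -0.06), and *TK1* read 4.02, 4.97 and 1.47 (-0.17 and -1.2), the lowest relative change of the 43 genes with *miR-497*. Base composition moved with these values too, with a Pearson r over all genes of 0.55 (*miR-195*) or -0.28 (*miR-497*), and relative to genes of like G+C content the medians were -0.79 and -0.42.

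The fold enrichment score sets the Ago2-IP to total RNA ratio of a transfected library over that of NT. It is high where Ago2-IP RPKM rose relative to total RNA RPKM, so a fall in total RNA alone also raises it. The median log2 score of the replication genes relative to all genes was -0.20 with *miR-195* (27 of 43 below the median of 9675 genes) and 0.03 with *miR-497* (21 of 43 below the median of 9665 genes), values that became -0.069 with a pseudocount of 1 RPKM in the first case and -0.01 with centring by G+C content in the second. Of 37 intervals, 12 lay below and 6 above the median of all genes with *miR-195*, and 7 below and 4 above with *miR-497*, with no such count over all genes. The highest scores with *miR-195* were those of *CDT1* (1.51, or 1.02 relative to all genes, interval 0.51 to 1.53), *FEN1* (1.17, or 0.68) and, by a small margin, *POLD2* (1.0, or 0.51), next to *RPA1* (1.0). With *miR-497* they were those of *CDC7* (0.72, or 0.98, interval 0.73 to 1.22), *PRIM1* (0.58, or 0.83) and *POLE2* (0.45, or 0.70). Of these 6 genes *CDT1* alone has the target word in its 3′UTR. *POLE2* had the lowest score with *miR-195* (-0.49) and *TK1* the lowest with *miR-497* (-1.56). Over all genes the score moved with G+C content, at a Pearson r of 0.43 (*miR-195*) or -0.71 (*miR-497*), and *CDT1* and *TK1* are among the 3 replication genes richest in G+C. The 3 genes with the highest scores with *miR-497* are low in G+C, *CDC7* with 39.1%, *PRIM1* with 43.6% and *POLE2* with 43.7%, where the median of the 43 genes was 46.7%. The part of base composition in these scores was not tested.

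The target word TGCTGCT was in a 3′UTR of 5 of the 43 genes (11.6%), where 28.9% of the 10438 genes kept with an annotated 3′UTR had it. The 3′UTRs of the replication genes were shorter, with a median of 938 bases for the longest of each gene against 1504 bases. Counted in coding sequence instead, the word was in 9 of 43 genes (20.9%) against 35.7%, and a word of 8 bases, with an A after the match, was in *GINS4* alone (2.33% against 5.82%). That *GINS4* site lies in 1 transcript, not the canonical one, and the site in its canonical transcript has no A after the match. The sites lie 246 bases into the 983 bases of the *CDT1* 3′UTR, 819 into 2017 in *GINS2*, 2194 into 2659 in *CDC6*, and 774 and 799 into 2313 in *POLD3*. With *miR-195* the 5 genes with the word had log2 changes in total RNA of -0.92 (*POLD3*), -0.89 (*GINS2*), -0.86 (*CDC6*), -0.79 (*CDT1*) and -0.74 (*GINS4*), a median of -0.86 against -0.67 for the 38 without it. Over all genes with a 3′UTR these medians were -0.08 with the word and 0.02 without it. With *miR-497* the medians were -0.42 and -0.35 for the replication genes and -0.01 and 0.08 over all genes. The median log2 score was 0.59 with the word and 0.28 without it for *miR-195* (0.58 and 0.47 over all genes), and -0.44 and -0.22 for *miR-497* (-0.22 and -0.28 over all genes). At least 1.5-fold lower with *miR-195* were 5 of 5 replication genes with the word and 26 of 38 (68.4%) without it, where over all genes 9.72% with the word and 4.74% without it were.

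RefSeq promoter windows were given for 37 of the 43 genes, all but *MCM4*, *MCM5*, *GINS4*, *POLD3*, *RPA2* and *RPA3*. Each of 3 E2F words, TTTCCCGC, TTTGGCGC and TTTCGCGC, was searched on both strands, and overlapping matches were counted. At least 1 was found in 19 of 37 genes (51.4%) against 717 of 15843 genes with a window (4.53%). These 15843 coding genes were not filtered by expression, unlike the genes behind the share of the target word. By word, TTTCCCGC was in 10 genes (27.0% against 2.65%), TTTGGCGC in 7 (18.9% against 1.09%) and TTTCGCGC in 5 (13.5% against 0.940%). The box CCAAT was in 22 genes (59.5% against 42.1%), and TTTGAA, the CHR word known from promoters of mitosis genes, in 2 (5.41% against 15.8%). The E2F words began from 187 bases before the gene start (*MCM7*) to 7 after it (*CDC6*), for example 59 bases before it in *PCNA*, 55 in *RFC3*, 39 in *TYMS*, 31 in *GINS2* and 5 in *POLE2*. The 19 genes with an E2F word lay at median log2 changes of -0.76 (*miR-195* over NT) and -0.47 (*miR-497* over NT) in total RNA, and the 18 without it -0.66 and -0.41. Over all genes with a window the medians were -0.09 and -0.04 with a word and -0.01 and 0.05 without. The genes with a word ranged from -0.89 (*GINS2*) to -0.34 (*CDC7*) with *miR-195*, and 16 of 19 were at least 1.5-fold lower, as were 12 of the 18 without, where over all genes with a window 13.3% with a word and 5.64% without it were. A match of letters is a description of the window and does not show that a factor is bound there.

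**Figure D5:**
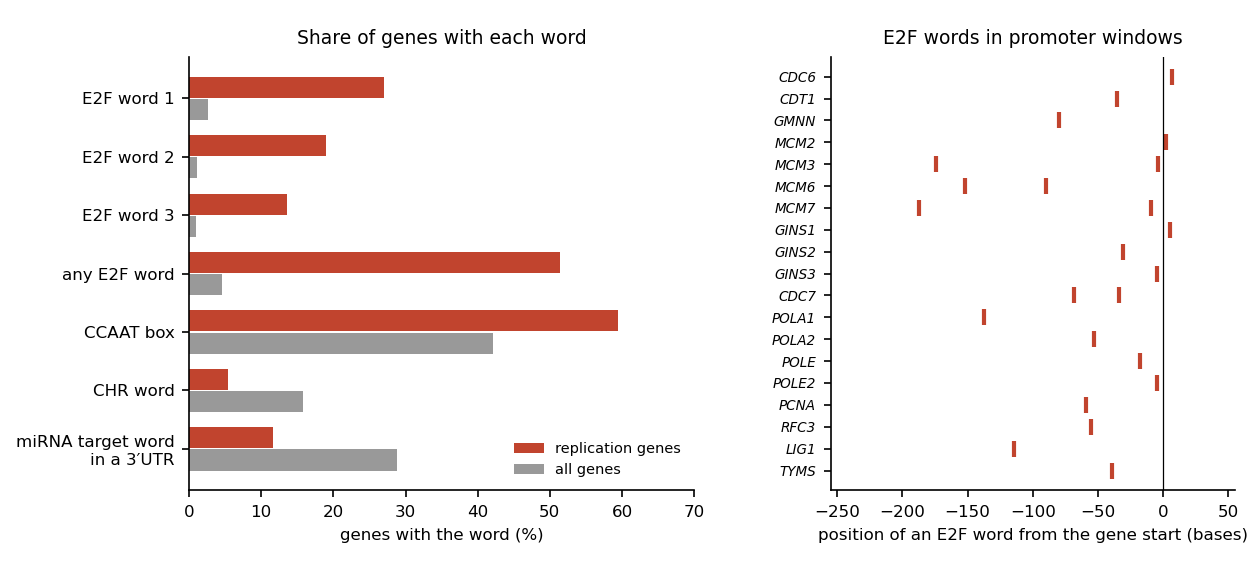
Left panel, share of genes in percent (x axis) with each word among the replication genes (red) and among all genes (gray), where E2F words 1 to 3 are TTTCCCGC, TTTGGCGC and TTTCGCGC, the first 6 rows refer to promoter windows and the last to 3′UTRs. Right panel, position in bases from the gene start (x axis) of the E2F words in the 19 replication genes that have one (y axis). Any E2F word was in 51.4% of the replication genes with a window and 4.53% of all genes with one, while the miRNA target word was in 11.6% and 28.9%. The gray bars of the promoter rows include genes not kept by the expression filter, and that of the 3′UTR row does not.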

How the data were processed

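Total RNA and Ago2-bound RNA of Hep G2 cells were sequenced by the study, 1 library for each of 3 conditions and 2 fractions. According to the labels and the study's methods, ELANDv2 of CASAVA 1.7 was used by the authors to place single reads of 36 bases on hg19, and RPKM per gene symbol were deposited, with no counts. The library kit was used with or without poly-A selection, and which library had it, the gene annotation and the strand setting are not given in the sources used here. The 28 symbols listed on more than 1 line were averaged, and no authors' comparison was used.

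Ratios were taken on the RPKM as deposited, with no pseudocount, for genes with a mean of at least 1 RPKM over the 3 libraries of the fraction and above 0 in the libraries compared. Reads were inferred from the steps of the RPKM values for 14143 of 15487 symbols (91.3%), by a procedure tested on simulated data, and give 95% counting intervals. With 1 library per group no p-value was calculated, and 1.5-fold stands in for a call. Values in every library are given for the members highest, lowest or most changed in a role group, those past 1.5-fold in total RNA with either mimic over NT, those with the target word and those with the 3 highest scores, which names 40 of the 43 genes. *POLD1*, *RPA1* and *RPA3* fall outside this rule and were added after their values were seen. The members and lists were chosen with earlier results of these data known. Alternatives were other pseudocounts, filters, scalings and word definitions, and centring by G+C content, which was added after the *miR-497* values were seen. Words were searched in GENCODE 44 transcripts on GRCh37 and in RefSeq windows on GRCh38.p14. Python 3.11.15, samtools 1.23.1 and the packages pysam 0.24.0, pandas 2.3.3, numpy 2.4.6, matplotlib 3.10.9 and scipy 1.17.1 were used.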

Additional observations from a re-analysis of the deposited data

Results flagged for a closer look

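*POLD1*, the catalytic subunit of polymerase delta, was the only one of the 37 replication genes with inferred reads whose counting interval in total RNA lay on opposite sides of the median of all genes with the 2 mimics. Relative to that median the *miR-195* library was at a log2 change of -0.26 (95% counting interval -0.42 to -0.11) and the *miR-497* library at 0.30 (0.16 to 0.43), from 8.27 RPKM in NT to 6.86 and 10.5 RPKM. The difference between the mimics was not tested, since each is 1 library, and how many of all genes do the same was not counted. The G+C content of its transcript is 63.9%, and relative to genes of like G+C content its log2 changes were -0.44 and -0.24. Of the 3917 exonic bases of *POLD1*, 426 overlap another coding gene on the same strand, so its reads may be shared.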

How the results depend on the processing

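Of 95 values under other settings, 86 stayed within 0.1 on the log2 scale for a median, within 1.5 times for a count or within the 95% exact binomial interval for a share, and 9 moved further. Part of the 86 could not move and say nothing on stability. Scaling a library shifts all its genes alike, so medians relative to all genes stay the same. All 43 genes also pass each filter in total RNA, so their medians and counts there stay the same. A count within 1.5 times can also hold other genes. Under centring by G+C content *POLE2* alone was shared with the genes 1.5-fold lower with *miR-497* as deposited. The sign changed for the median relative score with *miR-497*, from 0.03 to -0.01 under centring by G+C content, and for single genes. With *miR-497* over NT, *MCM5* went from 0.03 to -0.02 and -0.04 under both scalings, and *CDT1*, *POLD1*, *TK1*, *LIG1* and *MCM5* went below 0 under centring by G+C content, as did *POLD2* with *miR-195* over NT, from 0.04 to -0.01. The genes lower with *miR-195* than with *miR-497* went from 39 to 35 under both scalings and to 41 under that centring. A pseudocount of 1 RPKM moved the median relative change in Ago2-IP with *miR-195* to -0.63 and the median relative score with *miR-195* to -0.069. It left 5 genes at least 1.5-fold lower with *miR-497* over NT (1.87% of all genes) and 3 with *miR-195* over *miR-497* (3.46%). The latter count was 2 under scaling by the median RPKM (3.87%) and 2 under scaling by a trimmed mean of log ratios (4.30%). It was 1 under centring within bins of G+C content (1.18%). The target word was in 27.9% of the 43 genes (50.8% of all genes) as a word of 6 bases and in 2.33% (5.82%) as a word of 8 bases, and in 20.9% (35.7%) when coding sequence was searched in its place. No paired analysis was possible because each group holds 1 library, and for the same reason no library could be left out. A filter of 5 RPKM kept 18 of the 43 genes in Ago2-IP. The depth of the Ago2-IP libraries limits single genes there, with counting standard errors of up to 0.43 for a score on the log2 scale.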
